A study of Mus musculus with 23 samples.

Results

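The insulin-like growth factor (IGF) system was read out by 10 genes in TM4 cells, an immortalized line of mouse Sertoli cells, the somatic cells that nurse the germ cells of the testis. The genes were the ligands Igf1 and Igf2, the receptors Igf1r and Igf2r, and the binding proteins Igfbp2, Igfbp3, Igfbp4, Igfbp5, Igfbp6 and Igfbp7. They were chosen by name, with earlier results of these data known. Their probes were found through the RefSeq transcript that each array probe carries. This gave 14 probes for these 10 genes out of 20145 genes named on the array. Gene expression had been measured after 48 hr in cells treated with 1 of 5 compounds at 100 μM in 1.0% DMSO, or with 1.0% DMSO alone. The compounds were MEHP, the monoester metabolite of the phthalate plasticizer DEHP, the commercial plasticizer DINCH, a cyclohexane dicarboxylate diester, and the candidate replacements DOM (dioctyl maleate), DOS (dioctyl succinate) and BDB (a dibenzoate ester of butanediol). Each of the 23 samples, 4 per group and 3 for DOS (replicates 1, 3 and 4), had its own 1-colour Agilent array. All groups were the same cell line and all carried the vehicle, so there was no culture without DMSO.

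IGF1 and IGF2 are secreted peptides related to insulin. Both act through the IGF1 receptor, a tyrosine kinase that recruits insulin receptor substrates and the PI3K and AKT kinases, whereas the IGF2 receptor mainly takes IGF2 up for degradation. The IGF binding proteins hold the peptides outside the cell and control how much reaches the receptor, and in the testis the system is known for its part in Sertoli cell proliferation.

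A level is given here as the log2 of the probe's signal relative to the 75th percentile of signal on the same array, so 0 is a signal at that percentile and a difference of 1 is a 2-fold difference. Levels of different probes are not compared with each other, because probes differ in brightness. Each compound was compared with the same 4 DMSO arrays by limma, with p-values adjusted by Benjamini-Hochberg over all probes tested in that comparison. For a gene to be called, 1 of its probes at least had to pass an adjusted p of 0.05 and to differ by more than 1.5-fold. The 75th percentile signal lay between 204.6 and 350.7 over the 23 arrays, and between 43.4% and 52.2% of an array's spots exceeded background by the scanner software's own test, here called well above background. MEHP, DINCH and BDB occupied rows 1 and 3 of the slides and DMSO, DOM and DOS rows 2 and 4, so for MEHP, DINCH and BDB the slide row and the difference from DMSO cannot be told apart. Of 13 Sertoli cell markers, 7 were well above background on every DMSO array, among them Sox9, Gata4 and Dhh, while Wt1, Fshr and Cldn11 were well above background on none of the 23 arrays. The fibroblast markers Col1a1, Col1a2, Dcn and Pdgfra (4 of 5) were also well above background on every DMSO array. So were the Leydig cell marker Cyp17a1 (1 of 5), the peritubular myoid markers Acta2 and Cnn1 (2 of 4) and the macrophage marker Csf1r (1 of 3). No germ cell marker was (0 of 5). In RNA from whole cultures, fewer cells of a kind and less RNA per cell cannot be told apart.

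Of the 10 genes, 6 were tested in every comparison: Igf1, Igf1r, Igf2r, Igfbp4, Igfbp6 and Igfbp7. The other 4 genes did not reach the level needed for a test. With DINCH, Igf1 and Igfbp4 were called and both fell, 2 of 6 genes tested, beside 8.26% of all genes tested. Igf1 was called there on 1 probe only, which passed the filter through the DMSO arrays alone. With MEHP, 0 of 6 were called by limma, beside 1.68% of all genes. An unadjusted p under 0.05 was reached by 3 (Igf1, Igfbp4 and Igfbp6), beside 3918 of 24188 probes tested. With DOM, 0 of 6 were called, beside 20.5% of all genes. Here 3 (Igf1, Igf1r and Igf2r) had an unadjusted p under 0.05, beside 10345 of 24348 probes tested. BDB and DOS gave 0 of 6 each, and no gene at all was called for either (0% of all genes). Leaving out 1 array moved the count behind these shares by over 1.5 times for MEHP, from 201 genes to 88 without MEHP replicate 2 or 4, 97 without DMSO replicate 3 and 116 without MEHP replicate 1, and for DINCH, from 984 to 571 without DMSO replicate 3. At an unadjusted p under 0.05 there were 2 of the 6 genes with BDB (Igf1r and Igf2r), beside 3494 of 24291 probes tested. With DOS there were 0, beside 1725 of 24209 probes. A gene was counted if any of its probes had such a p, so counts of genes and of probes are not the same measure. The median difference over the 6 genes, each on its brightest probe, was -0.20 with MEHP (all genes -0.01), -0.06 with DINCH (all genes -0.00065), 0.24 with DOM (all genes -0.03), -0.12 with BDB (all genes -0.03) and 0.08 with DOS (all genes -0.01).

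The promoters of the genes called with DINCH are shown because both genes fell together. They are the 250 bases before the transcript start in RefSeq (build GRCm38.p6), 5′ to 3′ on the strand of the gene. Igf1 lies on the plus strand of chromosome 10 (chr10:87860861-87861110) and Igfbp4 on the plus strand of chromosome 11 (chr11:99040994-99041243). Capitals mark the motifs found. Both strands were searched for the TATA box as TATAAA, for the CCAAT box under its own letters, for the GC box as GGGCGG, and for the half-site that many nuclear receptors bind as AGGTCA.
Igf1: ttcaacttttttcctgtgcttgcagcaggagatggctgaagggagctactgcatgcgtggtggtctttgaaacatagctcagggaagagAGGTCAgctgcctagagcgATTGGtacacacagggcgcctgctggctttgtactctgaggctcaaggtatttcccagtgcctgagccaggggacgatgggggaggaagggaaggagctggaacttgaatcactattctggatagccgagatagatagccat
Igfbp4: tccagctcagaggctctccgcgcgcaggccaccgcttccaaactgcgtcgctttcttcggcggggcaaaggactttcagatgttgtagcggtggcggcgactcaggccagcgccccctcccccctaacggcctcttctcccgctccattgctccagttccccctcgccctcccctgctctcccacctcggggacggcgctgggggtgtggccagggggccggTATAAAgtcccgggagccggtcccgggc
The Igf1 window held AGGTCA beginning 161 bases before the start and CCAAT on the other strand beginning 142 bases before it. The Igfbp4 window held TATAAA beginning 28 bases before the start and none of the other 3 motifs. Of the 32851 windows of this length in the RefSeq table, the half-site was in 14%, the CCAAT box in 33.8%, the GC box in 32.7% and the TATA box in 12.4%. Igf1 was not alone among the 10 genes in holding AGGTCA, which 4 of them held in at least 1 window (Igf1, Igf2, Igf1r and Igf2r), and of these Igf1r and Igf2r were called in no comparison of any compound with DMSO. A match of letters is not a measured binding site.

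Igf1, the ligand produced by many mesenchymal cells, had the widest range of group means among the 6 tested genes. On its brightest probe (A_55_P2031631) the DMSO arrays, in replicate order, gave levels of 0.32, 1.49, 1.79 and 1.05. The MEHP arrays gave -0.78, 0.20, 0.10 and -0.07, and the DINCH arrays -0.38, 0.06, 0.72 and -0.04. Thus all MEHP arrays and 3 of 4 DINCH arrays lay below every DMSO array. The DOM arrays gave 1.21, 2.57, 2.76 and 1.68, the BDB arrays 0.48, 1.85, 2.07 and 1.82, and the DOS arrays 0.43, 2.22 and 1.63. These overlapped with DMSO, with 2 of 4 DOM arrays above every DMSO array. Replicate 1 was the lowest array of its group in all 6 groups on this probe.

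**Figure D1:**
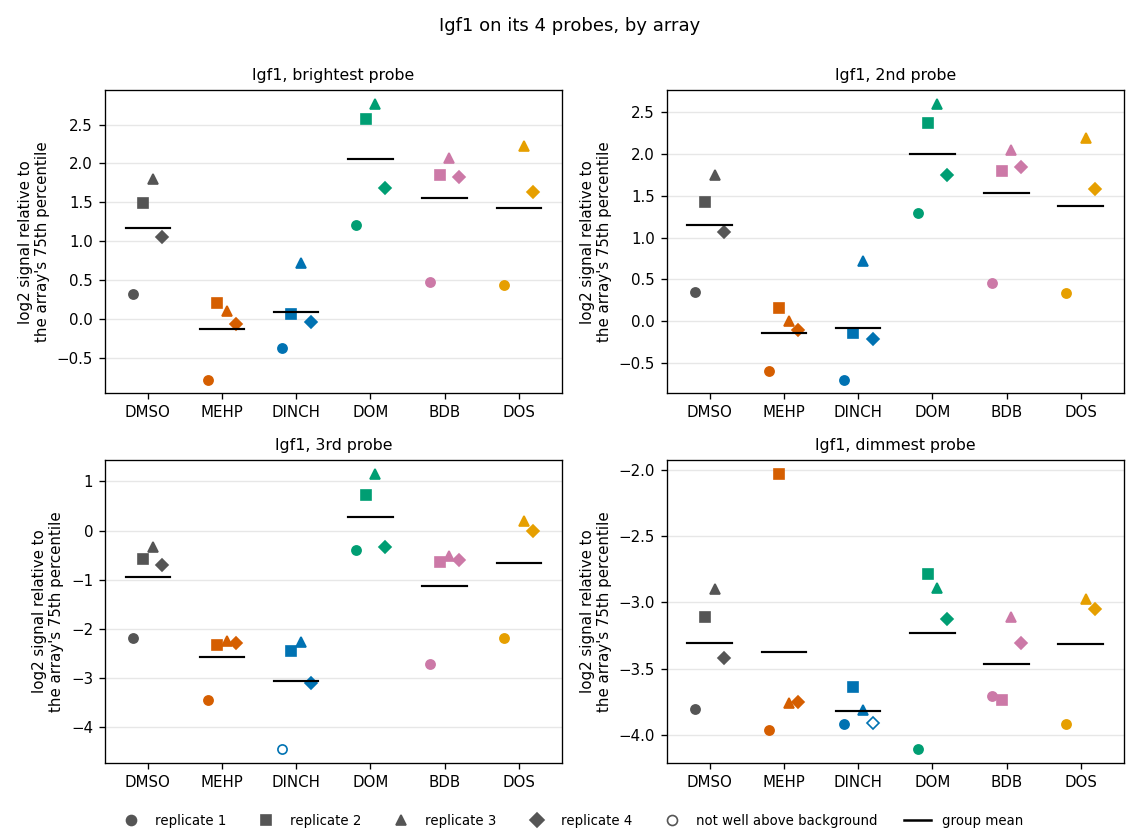
Levels of Igf1 on each of its 4 probes (vertical axis, log2 signal relative to the array's 75th percentile) in the 6 groups (horizontal axis). Points are single arrays with a shape for each replicate number, open points were not well above background and lines are group means. On the 3 brighter probes the MEHP and DINCH arrays lie low, the DOM arrays high, and replicate 1 is the lowest of each group.

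In order of the group means, Igf1 was highest with DOM (2.05 ± 0.74, SD, n = 4), then BDB (1.56 ± 0.73, n = 4), DOS (1.43 ± 0.91, n = 3), DMSO (1.16 ± 0.64, n = 4), DINCH (0.09 ± 0.46, n = 4) and MEHP (-0.14 ± 0.44, n = 4). Neighbours in this order differed by less than 1 SD within a group, except DMSO and DINCH. The difference from DMSO on this probe was -1.07 on the log2 scale for DINCH (SE 0.33, limma adjusted p = 0.0669), a 2.11-fold lower level, and -1.30 for MEHP (SE 0.33, adjusted p = 0.0871), 2.47-fold lower. From the correlation of same-numbered arrays (0.17 to 0.50), the replicate numbers were taken to pair the DINCH with the DMSO arrays. The labels do not say what a number stands for. All but replicate 3 of these pairs also shared a slide, so number and slide were not told apart. With the replicate number as a block the DINCH difference was called on this probe too (limma adjusted p = 0.0109). Between arrays of the same number, Igf1 was lower on 4 of 4 with DINCH, by 0.69 to 1.44, and on 4 of 4 with MEHP, by 1.1 to 1.69. Every group but DOS was spread over the same 3 slides, with 1 or 2 arrays of a group on each, and DOS lay on 2 of the slides. Within the 3 slides the Igf1 difference was -0.69, -1.59 and -0.71 for DINCH and -0.61, -1.54 and -1.12 for MEHP. With the slide as a block the DINCH difference was called on this probe (-1.03, limma adjusted p = 0.0317).

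For DOM the Igf1 difference was 0.89 (SE 0.40, limma adjusted p = 0.123, 95% confidence interval -0.01 to 1.80), and all 4 DOM arrays exceeded the DMSO array of the same number, by 0.63 to 1.08. With the slide as a block Igf1 was called higher with DOM on 3 of its 4 probes, on this one by 1.15 (adjusted p = 0.0270). Within the 3 slides the DOM difference was 1.57, 1.12 and 0.63. BDB and DOS differed from DMSO by 0.39 (interval -0.50 to 1.28) and 0.26 (interval -0.79 to 1.32). Neither interval shows that these compounds left Igf1 as it was, since both reach past a 1.5-fold change.

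All 4 Igf1 probes carry the same transcript accession. The probe A_55_P2085974 was the one called for DINCH, with a difference of -2.12 (SE 0.52, limma adjusted p = 0.0342), or 4.36-fold lower. Its DMSO arrays gave -2.18, -0.59, -0.34 and -0.70 and its DINCH arrays -4.46, -2.46, -2.27 and -3.11, the lowest of which, replicate 1, was not well above background. The probe thus passed the filter through the DMSO arrays alone, where it was high. The 4.36-fold difference rests in part on a value at background. All 4 DINCH arrays lay below every DMSO array on this probe, as did all 4 MEHP arrays (-3.46, -2.34, -2.25 and -2.29, difference -1.63, adjusted p = 0.0939). The probe A_55_P2085984 gave -1.23 for DINCH (adjusted p = 0.0522) and -1.28 for MEHP (adjusted p = 0.0602). The dimmest probe, A_55_P2031636, departed from these 3 for MEHP: its MEHP difference was -0.07 (interval -1.0 to 0.86), with 1 MEHP array, replicate 2, above all DMSO arrays. For DINCH it was lower as on the others, by a smaller difference of -0.51 (interval -0.93 to -0.09, limma adjusted p = 0.114). There 3 of 4 DINCH arrays lay below every DMSO array. The DINCH call on Igf1 was lost when any of 5 arrays was left out (DINCH replicates 1 or 4, DMSO replicates 2, 3 or 4), which left 1 gene called, with every probe tested regardless of brightness, and with detection on 1 array as the filter. The size of the DINCH difference on A_55_P2085974 also moved, to -1.66 without DINCH replicate 1 and to -0.97 with normexp background correction. With that correction the MEHP difference on the same probe was -0.93.

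Igf2, the other ligand, was not well above background on any of the 23 arrays, so no change can be given for it. Its single probe ranged from -6.83 to -4.67.

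The receptors were well above background on every array, and their fitted differences from DMSO lay under 1.5-fold with every compound. Igf1r, the signalling receptor, gave 2.58, 2.34, 2.30 and 2.29 on the DMSO arrays. With DOM it gave 2.89, 2.55, 2.5 and 2.75, which overlapped with DMSO (difference 0.29, limma adjusted p = 0.0937). With BDB it gave 2.26, 2.01, 2.18 and 2.10, all below the lowest DMSO array, but the difference of -0.24 did not pass the test (adjusted p = 0.308). For MEHP, DINCH and DOS the differences were 0.08, 0.16 and 0.12, with intervals between -0.14 and 0.42.

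Igf2r, which clears IGF2, gave 1.18, 1.24, 1.29 and 1.31 on the DMSO arrays and 1.5, 1.49, 1.45 and 1.62 on the DOM arrays, without overlap. This difference of 0.26 (SE 0.09) passed the adjusted p (limma, 0.0487) but at 1.20-fold lay under the fold threshold, so it was not called. BDB gave 0.94, 1.06, 1.07 and 1.14, all below DMSO, with a difference of -0.20 (adjusted p = 0.309). MEHP, DINCH and DOS differed from DMSO by 0.05, 0.06 and 0.03.

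Igfbp4, a binding protein that mostly restrains IGF action and is cut by the protease pappalysin, was the other gene that fell with DINCH. The DMSO arrays gave -0.56, -0.48, -0.29 and 0.00 and the DINCH arrays -1.30, -1.49, -0.90 and -1.16. Every DINCH array lay below every DMSO array, and the difference was -0.88 (SE 0.16, limma adjusted p = 0.0123, 95% interval -1.24 to -0.52), or 1.84-fold lower. The MEHP arrays gave -1.38, -0.97, -0.95 and -0.69, also all below DMSO, with a difference of -0.67 (SE 0.17, adjusted p = 0.0872). With the slide as a block the MEHP difference was -0.62 and was called (adjusted p = 0.0438), and within the slides it was -0.62, -0.57 and -0.70. DOM (-0.34, -0.21, -0.01 and -0.10), BDB (-0.67, -0.28, -0.58 and -0.05) and DOS (-0.93, -0.42 and -0.45) overlapped with DMSO, and their differences were 0.17, -0.06 and -0.27. In order of the means, DOM (-0.17 ± 0.14, SD, n = 4), DMSO (-0.33 ± 0.25, n = 4), BDB (-0.40 ± 0.29, n = 4) and DOS (-0.60 ± 0.29, n = 3) came first, and MEHP (-1.0 ± 0.28, n = 4) and DINCH (-1.21 ± 0.25, n = 4) last. Neighbours in this order differed by less than the SD of either group, except DOM and DMSO, whose difference exceeded the SD of DOM but not that of DMSO, and DOS and MEHP. Within the 3 slides the DINCH difference was -0.74, -1.10 and -1.04, each from 1 or 2 arrays per group. It was lost in 1 of 21 alternatives, the test of all probes with no filter on dim ones (adjusted p = 0.0950).

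Igfbp6, which prefers IGF2 over IGF1, had narrow spreads. The DMSO arrays gave 6.81, 6.91, 6.76 and 6.92. The MEHP arrays, at 6.76, 6.63, 6.51 and 6.64, lay just below them, the DOM arrays, at 7.20, 7.18, 6.97 and 6.93, above them, and so did the 3 DOS arrays at 7.11, 6.99 and 7.05. None of these differences passed the test: -0.21 for MEHP (adjusted p = 0.236), 0.22 for DOM (adjusted p = 0.128) and 0.20 for DOS (adjusted p = 0.748). DINCH and BDB differed by 0.12 and -0.17.

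Igfbp7, a secreted protein that binds IGFs weakly, varied widely within groups, and the DMSO arrays gave -1.98, -0.97, -1.36 and -2.60. The DOM arrays gave -2.21, -2.51, -1.86 and -2.76 and overlapped with them (difference -0.61, limma adjusted p = 0.202, interval -1.36 to 0.15). For the other 4 compounds the difference lay between -0.19 and 0.18, and the intervals reached from -1.07 to 1.06, so a change near 2-fold in either direction could not be told from the spread.

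**Figure D2:**
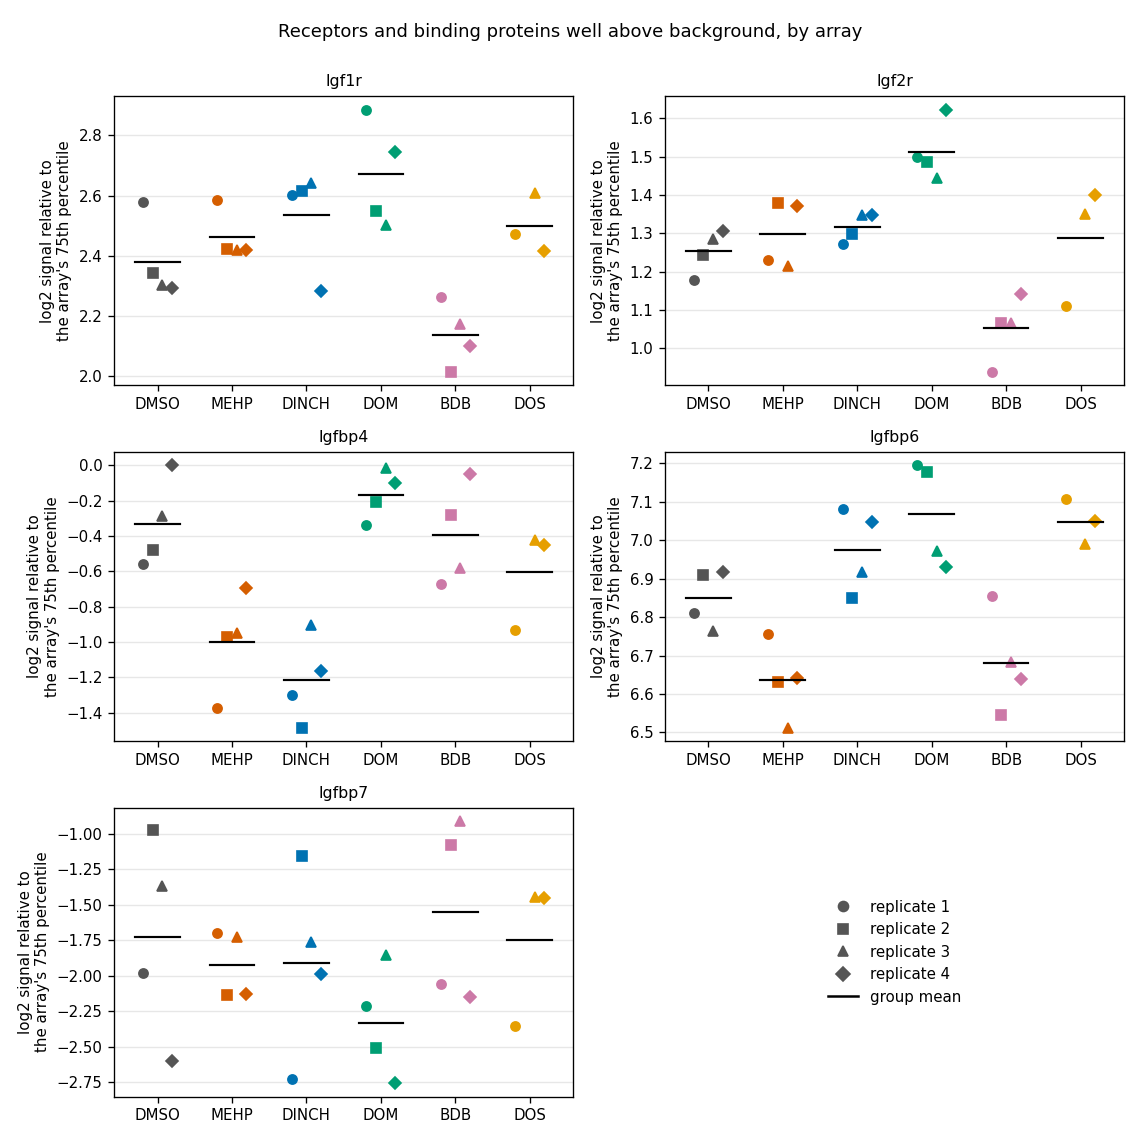
Levels of the receptors Igf1r and Igf2r and the binding proteins Igfbp4, Igfbp6 and Igfbp7 (vertical axis, log2 signal relative to the array's 75th percentile, 1 panel per gene with its own scale) in the 6 groups. Points are single arrays with a shape for each replicate number and lines are group means. All 4 DINCH and all 4 MEHP arrays lie below the DMSO arrays for Igfbp4.

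The remaining binding proteins were at the edge of detection. Igfbp3 and Igfbp5 were not well above background on any array. Igfbp2 was well above background with its brighter probe on 5 of the 23 arrays (2 DOM arrays and 1 array each of MEHP, DINCH and DOS, and no DMSO or BDB array), which was too few for a test in any comparison, and with its other probe on none.

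**Figure D3:**
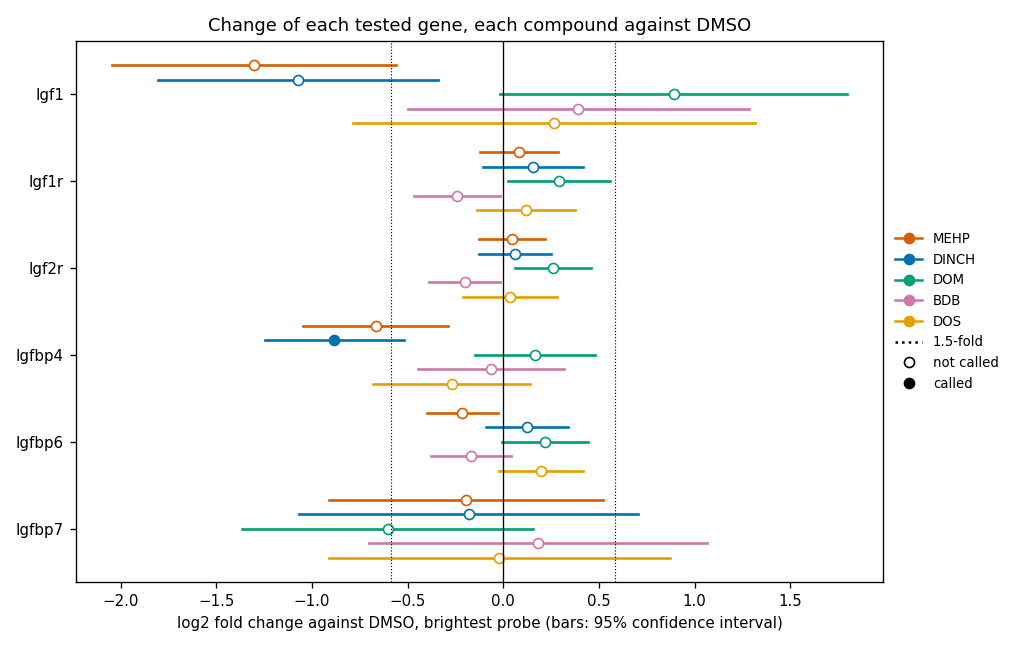
Log2 fold change of each tested gene with each compound against DMSO on the gene's brightest probe (horizontal axis), with 95% confidence intervals as bars and dotted lines at 1.5-fold. Filled points were called on that probe, which holds for Igfbp4 with DINCH at -0.88, while Igf1 with DINCH was called on another of its probes.

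The compounds were also compared with each other, in 4 pairs that shared slide rows. DOM and DOS differ by the double bond of the maleate core, which the succinate lacks. Between them 0 of 6 genes were called by limma, beside 15.2% of all genes. Igfbp4 was the 1 gene with an unadjusted p under 0.05, beside 8533 of 24128 probes tested. The difference of DOM from DOS was 0.63 for Igf1 (limma adjusted p = 0.391, 95% interval -0.48 to 1.73) and 0.44 for Igfbp4 (adjusted p = 0.0811, interval 0.08 to 0.79), with all 4 DOM arrays above the 3 DOS arrays for Igfbp4. Within the 2 slides that held both, the difference of DOM from DOS was 1.46 and -0.25 for Igf1, so it changed direction, and 0.66 and 0.34 for Igfbp4. The other 4 genes gave intervals between -1.22 and 0.49, so the arrays bound but do not exclude differences between the maleate and the succinate.

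Between MEHP and DINCH, the aromatic monoester and the cyclohexane diester, 0 of 6 genes were called by limma, beside 2.4% of all genes. The 284 genes behind that share became 83 to 177 on leaving out MEHP replicates 1, 2, 3 or 4 or DINCH replicates 1 or 4. Igfbp6 was the 1 gene with an unadjusted p under 0.05, beside 4479 of 23673 probes tested. Igf1 differed by -0.23 (interval -0.82 to 0.36) and Igfbp4 by 0.22 (interval -0.16 to 0.59). Igfbp6 was lower on all 4 MEHP arrays than on any DINCH array, by 0.34 (adjusted p = 0.0981, interval -0.55 to -0.13).

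BDB served as the compound with the same slide rows as MEHP and DINCH. MEHP against BDB called Igf1, 1 of 6 genes, beside 2.59% of all genes (309 genes, and 111 to 204 without MEHP replicates 1, 2 or 4 or BDB replicates 2 or 4). Its difference was -1.69 (SE 0.35, limma adjusted p = 0.0293), 3.24-fold lower, and all 4 MEHP arrays lay below all 4 BDB arrays. The probe A_55_P2085984 was called too (-1.67, adjusted p = 0.0257). Igfbp4 differed by -0.60 (adjusted p = 0.0760), again with no overlap. The Igf1 call was lost on leaving out any of 6 arrays (MEHP replicates 1, 2 or 4, BDB replicates 2, 3 or 4), with 0 genes then called.

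DINCH against BDB called Igf1 and Igfbp4, 2 of 6 genes, beside 9.89% of all genes, and both were lower with DINCH. Igf1 differed by -1.47 (SE 0.35, limma adjusted p = 0.0220), 2.77-fold, and was also called on 2 of its other probes. Of these, A_55_P2085974 passed the filter through the BDB arrays alone. Igfbp4 differed by -0.82 (SE 0.17, adjusted p = 0.0129), 1.76-fold, with every DINCH array below every BDB array. Igf1r was higher by 0.40 with DINCH (adjusted p = 0.0420), or 1.32-fold, under the fold threshold. Leaving out DINCH replicate 1 or BDB replicates 2, 3 or 4 left 1 gene called, Igfbp4.

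After the Igf1 values had been seen, DOM was set against DINCH and against MEHP, which lay in other slide rows. Of all genes, 23.3% were called between DOM and DINCH and 19.5% between DOM and MEHP. Igf1 was higher with DOM by 1.97 against DINCH (SE 0.35, limma adjusted p = 0.00245) and by 2.19 against MEHP (SE 0.36, adjusted p = 0.00185), 3.90-fold and 4.57-fold. Igfbp4 was higher by 1.05 (adjusted p = 0.000552) and 0.83 (adjusted p = 0.00254). These pairs were picked for their difference and describe its size.

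**Figure D4:**
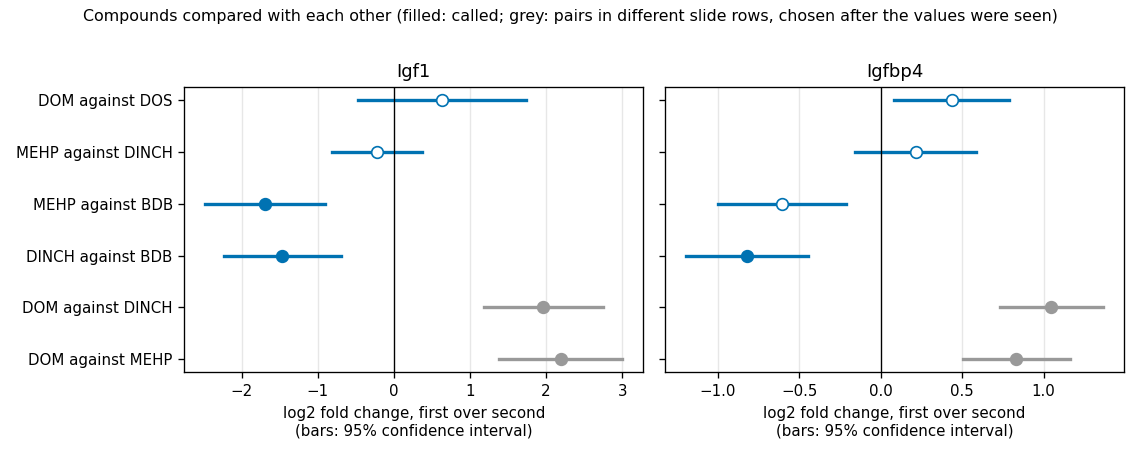
Log2 fold change of Igf1 and Igfbp4 on the brightest probe between pairs of compounds (horizontal axis, first compound over second), with 95% confidence intervals as bars. Filled points were called, blue pairs shared slide rows, and grey pairs did not and were chosen after the values were seen. Igf1 lies at -1.69 for MEHP against BDB and at -1.47 for DINCH against BDB.

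Among 12165 genes, those with the highest Pearson r with Igf1 over the 23 arrays were Aspn, which encodes the matrix proteoglycan asporin (0.958), Col5a1, a chain of type V collagen (0.943), and Akr1c14, a hydroxysteroid dehydrogenase (0.937). For Igfbp4 they were Pes1, a ribosome biogenesis factor (r = 0.915), Myd88, an adaptor of innate immune receptors (r = 0.887), and Zfp777 (r = 0.885). These correlations describe arrays that share treatments, replicate numbers and slides. Aspn was well above background on all 4 DMSO and all 4 DOM arrays, 3 of 4 BDB arrays, 2 of 3 DOS arrays, 1 DINCH array and no MEHP array, so its r and its rank rest in part on values at background, where levels have no firm order. Col5a1 was well above background on all arrays, with group means of 4.66 with DMSO, 4.17 with MEHP, 4.14 with DINCH and 5.14 with DOM. Of 5 fibroblast markers, 4 were well above background on every DMSO array, and the summed signal of all 5, in multiples of the array's 75th percentile, was 477.2 to 655.2 with DMSO, 392.9 to 501 with MEHP, 527.7 to 567.4 with DINCH, 555.9 to 743 with DOM, 478.4 to 685.2 with BDB and 567.5 to 780.6 with DOS. Of the 5, Dcn was called lower with MEHP (-1.12) and Pdgfra higher with DOM (0.86). The summed signal of the 13 Sertoli cell markers was 6.12 to 8.55 with DINCH, above the 4.51 to 4.79 with DMSO, and Dhh (1.09) and Inha (0.64) were called higher. It was 5.11 to 5.95 with MEHP, 4.60 to 4.97 with DOM, 4.94 to 5.44 with BDB and 4.53 to 5.55 with DOS. The 4 peritubular myoid markers summed to 24.5 to 26.6 with MEHP and 47.6 to 65.7 with DOS, without overlap with the 30.3 to 38.7 of DMSO, and to 35.9 to 50.9 with DINCH, 36.5 to 48.9 with DOM and 32.3 to 42.6 with BDB. Acta2 was by far the brightest of them, so this sum mostly follows Acta2. Des was well above background on 4 of the 23 arrays and Myh11 on none. With MEHP, Acta2 was at -0.42 and Cnn1 at 0.49, neither called. With DOM, Cnn1 was called lower (-1.21) while Acta2 was at 0.38, not called. With DOS both were higher (0.71 and 0.81), neither called. The part of these marker shifts in the Igf1 and Igfbp4 values was not tested.

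Around the 10 genes, a list of 51 further genes of IGF and insulin signalling was followed, also chosen with earlier results known. Of these, 50 had a probe and 36 or 37 were tested in a comparison. With DINCH, 6 of 36 tested were called, 3 higher and 3 lower, and with DOM 11 of 37, 6 higher and 5 lower. Ccn5, among the 6 higher with DOM, passed the filter through the DOM arrays alone. For MEHP (37 tested), BDB (36) and DOS (36) limma called 0 each. At an unadjusted p under 0.05 there were 10, 11 and 2 genes, beside the probe counts given above. The shares called, 16.7% for DINCH and 29.7% for DOM, stand beside the 8.26% and 20.5% of all genes given above. Leaving out DINCH replicate 4 or DMSO replicate 3 left 2 listed genes called with DINCH, and leaving out DMSO replicate 1 left 7 with DOM. The median difference over the list was 0.03 for DINCH and 0.12 for DOM, beside the -0.00065 and -0.03 over all genes.

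Among the proteases that free IGFs from binding proteins and their inhibitors, Stc2 fell with both compounds. Stc2 encodes a stanniocalcin, known to block pappalysin, a protease of Igfbp4. The pappalysin genes themselves, Pappa and Pappa2, were not well above background on any array. The DMSO arrays gave 2.46, 1.75, 2.09 and 1.72, the DINCH arrays 1.23, 1.09, 1.45 and 0.87 and the DOM arrays 1.04, 0.95, 1.13 and 0.60. No treated array of these groups reached the DMSO arrays, with differences of -0.84 for DINCH (adjusted p = 0.0239) and -1.07 for DOM (adjusted p = 0.0029). MEHP, at 1.47, 1.29, 1.52 and 1.43, was also below every DMSO array but did not pass the test against DMSO (-0.58, adjusted p = 0.114), although it did against BDB (-0.77, adjusted p = 0.00368). Htra1, a secreted serine protease, was called lower with DOM only among the comparisons with DMSO (-1.15, SE 0.10, from 3.63 ± 0.07 to 2.48 ± 0.13, SD, n = 4 each), and DOM also lay below DOS (-1.11).

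Of the CCN proteins, matrix proteins with a domain like that of the IGF binding proteins, Ccn4 fell with DINCH (-1.40) and with DOM (-0.79). With MEHP Ccn4 was at -0.49 on the log2 scale (adjusted p = 0.0219), under the fold threshold. Ccn2 fell with DOM (-1.34), where replicate 1 overlapped with DMSO, and was at 0.39 with DINCH, which did not pass the test. Ccn5 rose with DOM (0.95), from a level at which 2 of 4 DMSO arrays were well above background. It thus passed the filter through the DOM arrays alone, where it was high, and its call rests in part on values at background. Igf2bp1, which binds the Igf2 mRNA, fell with DOM (-0.71).

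Irs1, the docking protein next to the receptor, was called lower with DINCH and higher with DOM. The DMSO arrays gave 0.56, 1.28, 1.11 and 1.02. With DINCH it gave 0.02, 0.49, 0.53 and 0.33, a difference of -0.65 (SE 0.17, adjusted p = 0.0439), and with DOM 2.19, 2.40, 2.08 and 2.62, a difference of 1.33 (SE 0.18, adjusted p = 0.00089). DOM also exceeded DOS (1.05, 1.81 and 1.68) by 0.81 (adjusted p = 0.0297), and DINCH lay below BDB (difference -0.73, adjusted p = 0.0160). The DINCH and DOM comparisons share the DMSO arrays.

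Grb14, an inhibitor of the insulin receptor, rose with DINCH (0.96), and Gab1, another docking protein, rose with DOM (0.70). Of the PI3K subunits, Pik3cd rose with DINCH on 1 of its 3 probes (0.81) and Pik3r3 rose with DOM (0.59), only just over the fold threshold. No AKT kinase was called in any comparison. Foxo1, a transcription factor that AKT keeps out of the nucleus, rose with DOM on both of its probes (0.90 and 0.93), with all 4 DOM arrays above all DMSO arrays. Foxo6 rose with DINCH (0.59), also only just over the fold threshold, from a low mean level of -3.10 with DMSO to -2.52. Gsk3b, a kinase that AKT inhibits, was called with DOM on 1 of 3 probes (0.94), while its other probes gave 0.25 and 0.20.

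**Figure D5:**
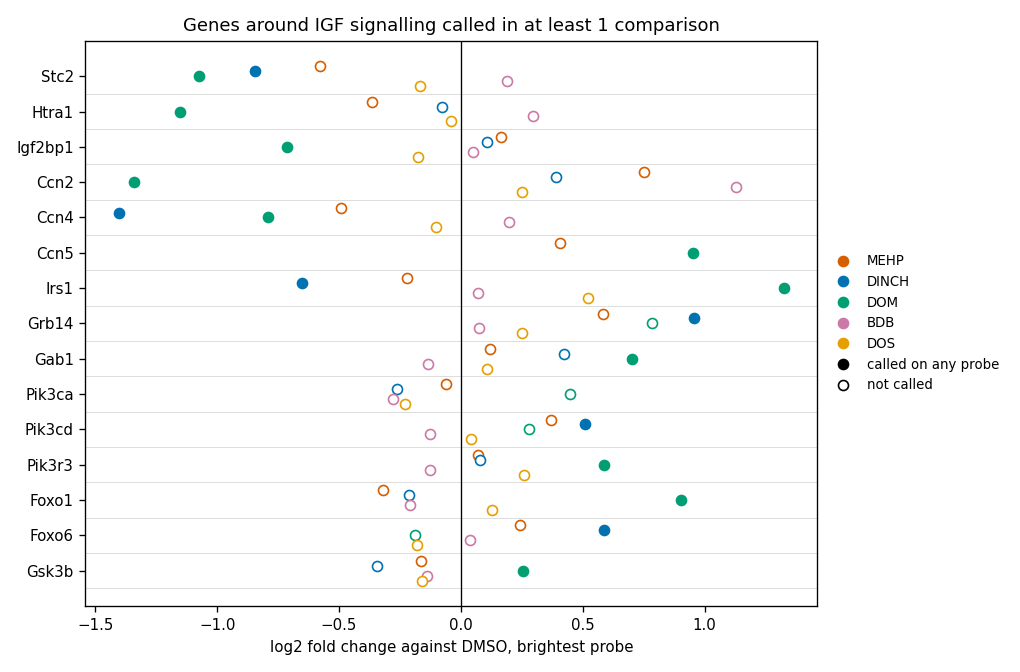
Log2 fold change against DMSO (horizontal axis) of the 15 listed genes that were called in at least 1 of 9 comparisons, 1 row per gene and 1 colour per compound, on the brightest probe. Filled points mark genes called on any probe for that compound. Irs1 lies at -0.65 with DINCH and at 1.33 with DOM.

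Between DOM and DOS 8 of the 37 listed genes tested were called (21.6%, beside 15.2% of all genes), 4 higher (Irs1, Pik3ca, Foxo1 and Gsk3b) and 4 lower (Stc2, Htra1, Ccn2 and Ccn4) with DOM. Between MEHP and DINCH limma called 0 of 37, with 6 at an unadjusted p under 0.05, beside the 4479 of 23673 probes given above. MEHP against BDB gave 4 of 37 (10.8%, beside 2.59% of all genes: Stc2, Htra1 and Ccn4 lower and Pik3cd higher with MEHP), and DINCH against BDB gave 6 of 36 (16.7%, beside 9.89%: Stc2, Ccn2, Ccn4 and Irs1 lower, Grb14 and Pik3cd higher with DINCH). The DOM and DOS count fell to 4 without DOS replicate 1, 5 without DOM replicate 2 and 2 with no filter on dim probes. The MEHP and BDB count fell to 1 without MEHP replicate 2, 2 without MEHP replicates 3 or 4 or BDB replicates 2, 3 or 4, and 0 with no filter. The DINCH and BDB count fell to 2 with no filter.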

How the data were processed

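The 10 genes and the list around them were chosen with earlier results of these data known. The authors extracted spot intensities with Agilent's Feature Extraction software, and the deposited intensities were linear, background-subtracted and not scaled between arrays. The table that they also deposited holds log2 values after a 75th percentile shift and centring of each probe on its median, and was used as an alternative. Here, processed intensities were floored at 1 and put on the log2 scale, the 75th percentile of the array's non-control spots was subtracted, outlier spots were dropped and replicate spots averaged. Probes were named through RefSeq accessions (26582 of 55681), and the probe with the highest mean level stands for a gene unless another is named. Probes entered a test if every array of 1 of its groups at least had them well above background and not under that array's 20th percentile, with limma 3.58.1 in R 4.3.3 on those groups alone. All 10 genes are named, and listed genes where called. The labels call the samples biological replicates and name no separate cultures, so the p-values measure the spread between these samples. Arrays have no read depth, and their number limits the precision. Whether replicate numbers pair arrays was checked from the values, by the correlation of same-numbered arrays' deviations from group means over the probes tested. Every pair exceeded 0.1 for DINCH (0.17 to 0.50), BDB (0.25 to 0.43) and DOS (0.20 to 0.45) with DMSO, DINCH with BDB (0.15 to 0.37) and DOM with DOS (0.10 to 0.40), so the numbers were taken to pair these arrays. DOM with DOS only just passed and had no replicate 2. DOM with DMSO gave 0.43, 0.25 and 0.27 on replicates 1, 3 and 4, and failed on replicate 2 alone (0.04). MEHP with DMSO also failed on replicate 2 alone (-0.14). For both compounds, replicate 2 lay on another slide than DMSO replicate 2. A shared number and a shared slide were not told apart. On simulated data with known changes, those of 1 log2 unit were recovered in 80% of cases for MEHP, 83% for DINCH and 74% for DOM against DMSO, and those of 2 log2 units in 95%, 95% and 97%. The changes were put on probes picked at random, with independent noise for each array and no slide or replicate effect. These shares therefore do not give the chance of calling Igf1. Its SD within groups was 0.44 to 0.91 on the brightest probe, and replicate 1 was lowest in all 6 groups. Smaller changes were not simulated.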

Additional observations from a re-analysis of the deposited data

Results flagged for a closer look

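In groups of 4 arrays, 1 array stood apart from the other 3 by Dixon's test at the 95% level for 7 of the 43 pairs of probe and group with all 4 arrays well above background. Chance marks about 1 in 20 of independent pairs. These pairs are not independent, since the probes of Igf1 share arrays, and 3 of the 7 are the same array, BDB replicate 1. For Igf1, BDB replicate 1 was low on 3 probes, at 0.48 on the brightest probe (nearest other array 1.82), 0.45 on the second (1.80) and -2.72 on the third (-0.65). MEHP replicate 1 was low on the third Igf1 probe, at -3.46 (nearest -2.34), and MEHP replicate 2 was high on the dimmest, at -2.03 (nearest -3.75). For Igf1r, DINCH replicate 4 was low at 2.28 (nearest 2.60) and MEHP replicate 1 was high at 2.59 (nearest 2.42). With replicate 1 of every group left out, chosen after seeing the data, Igf1 was called with MEHP (-1.37, limma adjusted p = 0.0385), where it was not over all 4 arrays.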

How the results depend on the processing

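The number of the 10 genes called moved in these settings. For MEHP against DMSO it was 1 instead of 0 with normexp background correction, the slide as a block, all 6 groups in 1 fit or a variance trend. It was 2 with the replicate block (Igf1, limma adjusted p = 0.0195, and Igfbp4, 0.0277), where the numbers were not taken to pair. On leaving out each array it was 0 to 1 (1, Igf1, without DMSO replicate 1). With 2 alternatives chosen after seeing the data, slides blocked in a joint fit of all 6 groups, and replicate 1 of every group left out, it was 1 each. For DINCH against DMSO it was 0 instead of 2 with no filter on dim probes, 1 with detection on 1 array, and 1 to 2 on leaving out each array. For DOM against DMSO it was 1 (Igf1) instead of 0 with normexp, the slide as a block, a variance trend or the added slide and joint fit. It was also 1 (Igf1) with the replicate block (limma adjusted p = 0.00212), where the numbers were not taken to pair. On leaving out each array it was 0 to 1, with Igf1 called without DOM replicate 1 and Igfbp7 without DMSO replicate 4. DOM against DOS gave 1 (Igfbp7) instead of 0 with the added slide and joint fit. MEHP against BDB gave 0 instead of 1 with no filter or detection on 1 array, 2 with the replicate block, all 6 groups in 1 fit, a variance trend or the brightest probe only, and 0 to 1 on leaving out each array. DINCH against BDB gave 0 instead of 2 with no filter, 1 with detection on 1 array and 1 to 2 on leaving out each array. BDB and DOS against DMSO and MEHP against DINCH gave 0 in every setting. The replicate block also called Igf1 with DINCH on its brightest probe (adjusted p = 0.0109) and on A_55_P2085984 (0.00829), and changed no other call of the 10 genes in the paired comparisons. Over its alternatives, the adjusted p of Igf1 on its brightest probe ranged from 0.0195 to 0.389 for MEHP, 0.0109 to 0.255 for DINCH and 0.00212 to 0.331 for DOM. Of the listed genes, DINCH called 0 instead of 6 with no filter and 2 with normexp, detection on 1 array or replicate 1 left out, and 2 to 5 on leaving out each array; DOM called 6 instead of 11 with no filter and 7 to 12 on leaving out each array, DOM against DOS 4 to 8 and MEHP against BDB 1 to 4. Over all genes, BDB called 166 instead of 0 in the added joint fit, 120 with all 6 groups in 1 fit and 100 with the slide as a block, and DINCH called 97 instead of 984 with no filter. The cause of these moves was not tested. Of 1656 fold changes of the 10 genes under alternatives, none that was called changed sign, and 82 changed sign while not called in either fit.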
